A study of Drosophila melanogaster with 28 samples.

Results

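The cuticle protein genes described here are the protein-coding genes of Drosophila melanogaster, in Release 6 of its genome, whose symbol begins with Cpr and a digit or with Twdl. They number 95 of 13968 protein-coding genes on the 7 chromosomes examined, with 70 Cpr and 25 Twdl genes. They lie on 2L (6 genes), 2R (22), 3L (35), 3R (24) and X (8). Of the 95, 64 were clustered, in 14 runs of 3 or more members with gaps of at most 10 kb, 4 formed 2 pairs and 27 stood single. Clustered genes comprised 45 Cpr and 19 Twdl genes, and single genes 21 Cpr and 6 Twdl genes. Membership rests on the symbol alone and used no measured value.

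Chromatin came from testis tumours of flies kept at 25C, made by expressing the JAK-STAT ligand Upd with GAL4. In germline tumours ("Nanos-Upd") the driver GAL4::VP16-nanos.UTR acted on UAS-Upd in y[1] w[1118] flies that also carried P{hs70FLP}, and the labels call the product GSC-like chromatin, from cells resembling germline stem cells. In cyst tumours ("TrafficJam-Upd") traffic Jam - GAL4 acted on UAS-Upd in w[1118] flies, and the product is CySC-like chromatin, from cells resembling the somatic cyst stem cells. Both genotypes carried UAS-FRT-H3-GFP-FRT-H3-mKO, so the same driver that made the tumour also chose the cells whose histone H3 bore GFP. An antibody against GFP led micrococcal nuclease to that chromatin; of the released nucleosomes a portion served as input, and the remainder went to immunoprecipitation (IP) for H3K4me3, H3K27me3 or H3K9me3. The 28 libraries form 12 groups: per tumour type, IP and input have 2 replicates each for H3K4me3, 3 for H3K27me3 and 2 for H3K9me3. The age of the flies is not given in the labels, and nothing there says that replicates came from separate flies, so the tests measure a spread between samples that may be technical. Every value averages over the tagged cells, in which the share of cells with a mark and the amount per cell cannot be told apart.

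Insect cuticle is a layered matrix of chitin fibres and proteins, secreted by the epidermis and by the linings of the trachea, foregut and hindgut. Cpr proteins carry the Rebers and Riddiford consensus, a chitin-binding domain, and form the largest family of cuticle proteins; the Twdl (Tweedle) proteins are a second family, named for the squat body that mutations in TwdlD give. Many of these genes arose by tandem duplication and are switched on in short pulses around each moult, under ecdysone and the nuclear receptors it controls. Germ cells and cyst cells lay down no cuticle. Of the marks, H3K4me3 accompanies active start sites, H3K27me3 is the mark of Polycomb repression and H3K9me3 that of heterochromatin.

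Cuticle protein genes were short and GC-rich. Their median length was 1088 bp, against 2164.5 bp for all genes, and clustered members (median 954.5 bp) were shorter than single ones (1454 bp). Median GC content was 46.0% in member promoters and 42.3% in all promoters, and 49.5% in member bodies against 45.7% in all bodies. Twdl bodies reached 53.3% GC, Cpr bodies 48.2%, clustered bodies 51.2% and single bodies 48.2%.

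A TATA box, the core promoter element bound by the TATA-binding protein, was shared by many members. The letters TATAAA, read on the gene's strand with the first base 40 to 20 bases before the annotated start, stood in 49 of 95 member promoters (51.6%) and in 1087 of 13968 promoters overall (7.78%). It stood in 32 of 64 clustered members, 55.6% of single members, 60.0% of Twdl genes and 48.6% of Cpr genes. On either strand within 250 bases before to 50 bases after the start, TATAAA occurred in 72.6% of members and 45.8% of all genes. GAGAG, searched on both strands of the same 300 bases, occurred in 31.6% of members and 29.7% of all genes. TCAGT within 10 bases of the start, read on the gene's strand, occurred in 11.6% of members and 11.7% of all genes, with 25.9% among single members and 6.25% among clustered ones. A match is a run of letters and not a shown binding site.

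The following segments belong to 10 of the members described below for promoter H3K4me3, from 2L, 3L, 3R and X only. Whether these sequences bear on H3K4me3 was not tested. Each runs 5′ to 3′ on the gene's strand over 30 bases, from 40 to 11 bases before the annotated start in Release 6, with TATAAA in capitals. The first 7 were above input in at least 1 tumour type. Of the last 3, among the 4 lowest by the mean of both tumours, Cpr65Ax2 was below input in both and the other two were not called.
Cpr64Ac (chr3L:4212926-4212955, minus strand): aaaatgcatctcacatttgagctgagttct
Cpr64Ad (chr3L:4215339-4215368, plus strand): ttcgcgaacgcatctgggTATAAAagtcgt
Cpr64Aa (chr3L:4209189-4209218, minus strand): tgaggccTATAAAaagcaattgtcgtgcgg
Cpr66D (chr3L:8640399-8640428, plus strand): tgtcgtttgccgaTATAAAagtgcaatttg
TwdlE (chr2L:7860850-7860879, minus strand): cacgcgctgcgctgcTATAAAagaaactgc
TwdlN (chr3R:26631829-26631858, plus strand): cgtgtcggccaggccaTATAAAtggcccgg
TwdlY (chrX:16734907-16734936, plus strand): ttgacaatcggagcatatttaagacaagtg
Cpr65Au (chr3L:6132120-6132149, minus strand): atcgcatcgcagctcagtaaagtgcagcta
Cpr78Cb (chr3L:21294452-21294481, plus strand): caaaacaaaagacttaggcaacgaactttg
Cpr65Ax2 (chr3L:6150868-6150897, minus strand): caaagagttgaacTATAAAtaaactgagaa
Among the promoters shown, both ends hold some with and some without the letters. Of the 64A cluster, Cpr64Ad and Cpr64Aa have TATAAA with its first base 22 and 33 bases before the start, and Cpr64Ac lacks it in this window.

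The 28 libraries held 942943 to 18199704 fragments on the 7 chromosomes, recovered from the deposited signal, and the shallowest was the H3K27me3 IP of germline replicate 1. H3K4me3 libraries of germline and cyst tumours ran on different flow cells, so for this mark effects of flow cell and of tumour cannot be told apart; among H3K27me3 libraries germline replicate 3 ran apart from the rest. In promoter H3K4me3, 0 of 6 germline markers and 0 of 5 cyst lineage markers differed between germline and cyst, as did 0% of all promoters, so the test separates no list. Of 93 ribosomal protein promoters, 29 were above and 3 below input for H3K4me3 in germline, and 45 above and 0 below in cyst, where 20.7% of all promoters were above and 4.52% below in germline and 27.7% and 3.59% in cyst. H3K27me3 over 22 Polycomb target bodies had median IP/input values (log2) that were 0.28 ± 0.31 for germline and 0.16 ± 0.10 for cyst tumours (SD, n = 3), and H3K9me3 over 8 heterochromatin-embedded genes had 0.13 ± 0.09 and 0.06 ± 0.04 in germline and cyst (SD, n = 2), with 0 of either list called above input, where at most 0.387% of all bodies were. Among genes that mark the cells, H3K4me3 at vas was below input in both tumours, at -1.04 ± 0.00 in germline and -0.91 ± 0.33 in cyst (SD, n = 2). The 6 germline markers had 0 above and 1 below input in each tumour, with medians of -0.10 ± 0.08 in germline and 0.09 ± 0.55 in cyst. The 5 cyst lineage markers had 1 above and 0 below in each tumour, with medians of 0.51 ± 0.31 in germline and 0.38 ± 0.04 in cyst.

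Throughout, IP/input of a replicate is the log2 ratio of the scaled IP and input signal with 1 fragment added to each, and a member was called above or below input when limma gave an adjusted p under 0.05 and a fold over 1.5 among all genes tested. Promoters span 500 bp on each side of the start.

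H3K4me3 asks whether any of these genes carries the mark of an active start. Calls above input were no more frequent at cuticle protein promoters than at promoters in general, in either tumour type. Of 94 member promoters tested, 18 were above input in germline tumours, where 20.7% of all promoters were, and 14 were above input in cyst tumours, where 27.7% of all promoters were. The members' shares, 19.1% in germline and 14.9% in cyst, lay near or under that background. Below input were 1 member in germline (4.52% of all promoters) and 2 in cyst (3.59%). The median log2 IP/input of members was 0.22 ± 0.05 in germline and 0.21 ± 0.05 in cyst, against 0.27 ± 0.02 and 0.27 ± 0.11 for all genes in germline and cyst (SD, n = 2). The calls rest on both replicates: leaving out germline replicate 1 or 2 left 3 or 2 members above input in germline (4.41% or 6.18% of all promoters), and leaving out cyst replicate 1 or 2 left 5 or 4 in cyst (10% or 24.7%). With values centred on the median of all genes, 7 members were above and 4 below input in germline (12.2% and 8.32% of all promoters), and 5 above and 5 below in cyst (18.8% and 7.87%).

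Cpr64Ac, in the cluster at 64A (chr3L:4211964-4212915, minus strand), had the highest log2 IP/input of H3K4me3 by the mean of both tumours. Its IP signal was 1.07 and 1.08 in the germline replicates, over inputs of 0.63 and 0.54, and 1.51 and 1.45 in the cyst replicates, over inputs of 0.58 and 0.60. Both IPs exceeded both inputs in each tumour type. These inputs were low: the median input of all promoters was 1.01 and 1.03 in the same germline libraries and 1.13 and 1.26 in cyst. The part of the low input in the rank of Cpr64Ac was not tested. The limma difference from input was 0.78 ± 0.21 (SE) on the log2 scale in germline (adjusted p = 0.00729) and 1.20 ± 0.21 in cyst (adjusted p = 0.00014).

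Germline and cyst replicates of Cpr64Ac did not overlap, with cyst higher, as in 21.1% of all promoters. The limma difference between them, -0.42 ± 0.29, did not pass (adjusted p = 0.67). Cpr64Ad (chr3L:4215379-4216414, plus strand) had log2 IP/input of 0.74 and 1.06 in germline and of 1.65 and 0.72 in cyst, while Cpr64Aa (chr3L:4207838-4209178, minus strand) had 0.73 and 0.63 in germline and 1.22 and 0.77 in cyst. Cpr64Ad was called above input in both tumours (adjusted p = 0.0155 in germline and 0.000948 in cyst), while Cpr64Aa was called in cyst (adjusted p = 0.00144) and in germline had a fold just under 1.5 (limma 0.58, adjusted p = 0.0414). The fourth gene of the run, Cpr64Ab, was also called in cyst, so that all 4 genes of the cluster were above input there. In the body window the same cluster gave Cpr64Ad the second highest H3K4me3 of the members by the mean of both tumours, with a limma difference of 1.19 in germline and 1.78 in cyst.

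Among single genes, TwdlE on 2L (chr2L:7857957-7860839, minus strand) and Cpr66D on 3L (chr3L:8640439-8643584, plus strand) were above input in both tumours. TwdlE, a Tweedle gene, had log2 IP/input of 0.66 and 1.52 in germline and 0.59 and 1.15 in cyst, with overlapping tumours. The chitin-binding family member Cpr66D had 0.96 and 0.44 in germline and 0.68 and 1.41 in cyst. On 2R, Cpr47Ee of the 47E cluster had 0.97 and 1.18 in germline and 0.48 and 0.95 in cyst, while the limma differences were 0.95 ± 0.21 and 0.67 ± 0.21 (SE) in germline and cyst. These 3 and Cpr30B, Cpr64Ac and Cpr64Ad were the 6 members called in both tumours, which is 33.3% of the 18 germline calls and 42.9% of the 14 cyst calls. For all genes 2081 promoters were shared, 73.3% of the germline calls and 55.0% of the cyst calls.

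Other members were called in 1 tumour type. Twdlbeta, a single Tweedle gene on 2R, had log2 IP/input of 1.25 and 1.05 in germline and 0.50 and 0.55 in cyst. It was called in germline (limma 1.02 ± 0.21, adjusted p = 0.00115). TwdlN, within the largest Tweedle cluster (chr3R:26631869-26632956, plus strand), had 0.91 and 1.38 in germline and 0.24 and 0.03 in cyst. It was called in germline (adjusted p = 0.00211). TwdlY, on the X (chrX:16734947-16735980, plus strand), had -0.05 and 0.49 in germline and 1.04 and 0.84 in cyst. It was called in cyst (adjusted p = 0.0243). In these 3 genes the replicates of germline and cyst did not overlap. The same held for 17.9% of all promoters with germline higher and 21.1% with cyst higher, and for 22 and 9 of 94 members. The difference itself did not pass: the germline minus cyst difference was 0.54 ± 0.30 for Twdlbeta (adjusted p = 0.571), 0.88 ± 0.32 for TwdlN (adjusted p = 0.374) and -0.74 ± 0.41 for TwdlY (adjusted p = 0.568). No promoter of any gene passed the test of that difference in limma (percent called 0 in each direction), and edgeR called 0 members; at an unadjusted p under 0.05, 5 of 94 members were higher and 4 lower in germline, against 3.3% and 6.5% of all promoters.

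The low end was led by Cpr65Ax2 and Cpr50Ca. Cpr50Ca, of the pair at 50C on 2R, had -0.46 and 0.11 in germline and -1.14 and -1.50 in cyst. It was called below input in cyst (limma -1.09 ± 0.29, adjusted p = 0.00559). Its germline minus cyst difference of 0.88 ± 0.42 did not pass (adjusted p = 0.492). Cpr65Au (chr3L:6131242-6132109, minus strand), at the edge of the 65A cluster, had -0.35 and -0.59 in germline and -0.94 and -0.19 in cyst. Cpr78Cb (chr3L:21294492-21296698, plus strand) had -1.08 and 0.07 in germline and -0.31 and -0.52 in cyst. Neither was called in germline or cyst. Promoter GC was 34.1% in Cpr50Ca, 35.3% in Cpr65Au and 36.5% in Cpr78Cb, against 53.9% in Cpr64Ac, 56.0% in Twdlbeta and 56.4% in TwdlN.

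Cpr65Ax2 needs a separate reading. It and Cpr65Ax1 are near-identical copies: over the 457 bp of the shorter gene they differ by 1 edit (99.8% identity). In all 28 libraries both bodies hold 0 fragments, so both are listed at 0, and 66.0% of the Cpr65Ax2 promoter bins and 64.0% of the Cpr65Ax1 promoter bins are empty as well. The Cpr65Ax2 promoter call (IP of 6 and 4 fragments over inputs of 38 and 52 in germline, and of 9 and 12 over 19 and 23 in cyst) therefore rests on the covered edge of the window. Empty bins made up more than 10% of the body in 8 members, among them TwdlK (28.6%), TwdlL (30.2%), Cpr67Fa1 (34.3%) and Cpr73D (49.1%).

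**Figure D1:**
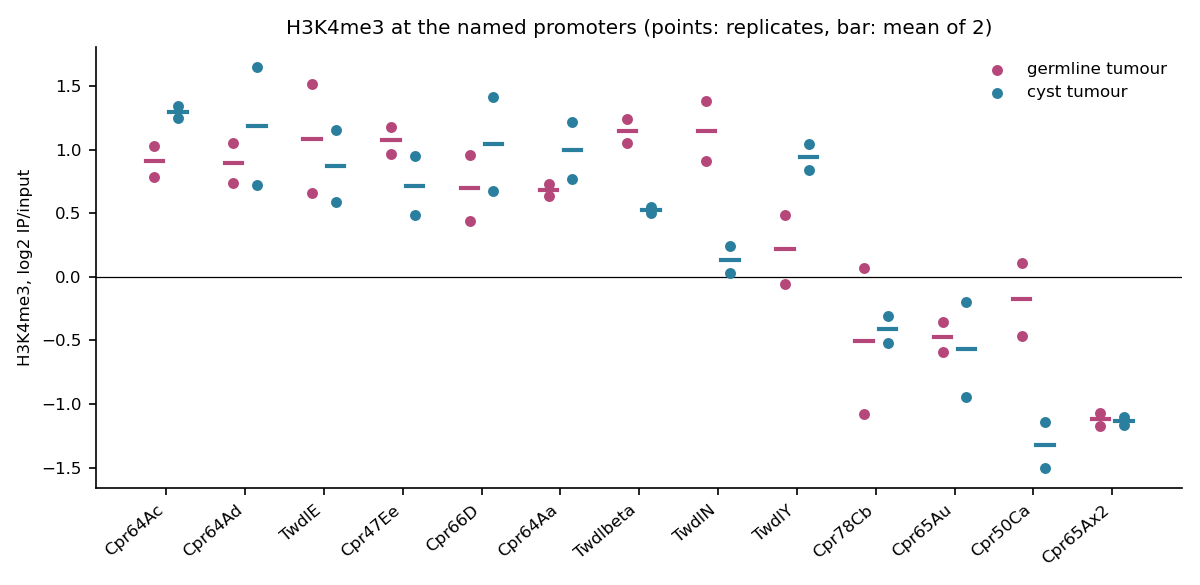
H3K4me3 as log2 IP/input (vertical axis) at the promoters of the named members, with germline and cyst replicates as points and their mean as a bar. Cpr64Ac lies at 0.79 and 1.03 in germline and 1.34 and 1.25 in cyst, while Cpr65Ax2 lies below -1 in all 4 replicates.

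Around the start the members lacked the shape seen at genes in general. Measured against flanks 1000 to 1500 bp away, summed H3K4me3 at 40 to 200 bp past the start of members stood higher by 0.27 ± 0.04 in germline and 0.30 ± 0.05 in cyst, against 0.56 ± 0.08 and 0.67 ± 0.24 for all genes and 0.72 ± 0.15 and 1.03 ± 0.02 for ribosomal protein genes in germline and cyst (SD, n = 2). Over the 200 bp upstream, where genes in general showed a dip of -0.33 ± 0.06 in germline and -0.55 ± 0.02 in cyst, members stood at 0.19 ± 0.05 and 0.15 ± 0.04. The input of the same libraries over these upstream bases was -0.10 in germline and -0.09 in cyst for members, and 0.30 and 0.36 for all genes, relative to the flanks. H3K27me3 gave the same contrast upstream, with 0.28 ± 0.06 in germline and 0.23 ± 0.19 in cyst for members and -0.33 ± 0.34 and -0.58 ± 0.18 for all genes (SD, n = 3). These sums were not tested.

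**Figure D2:**
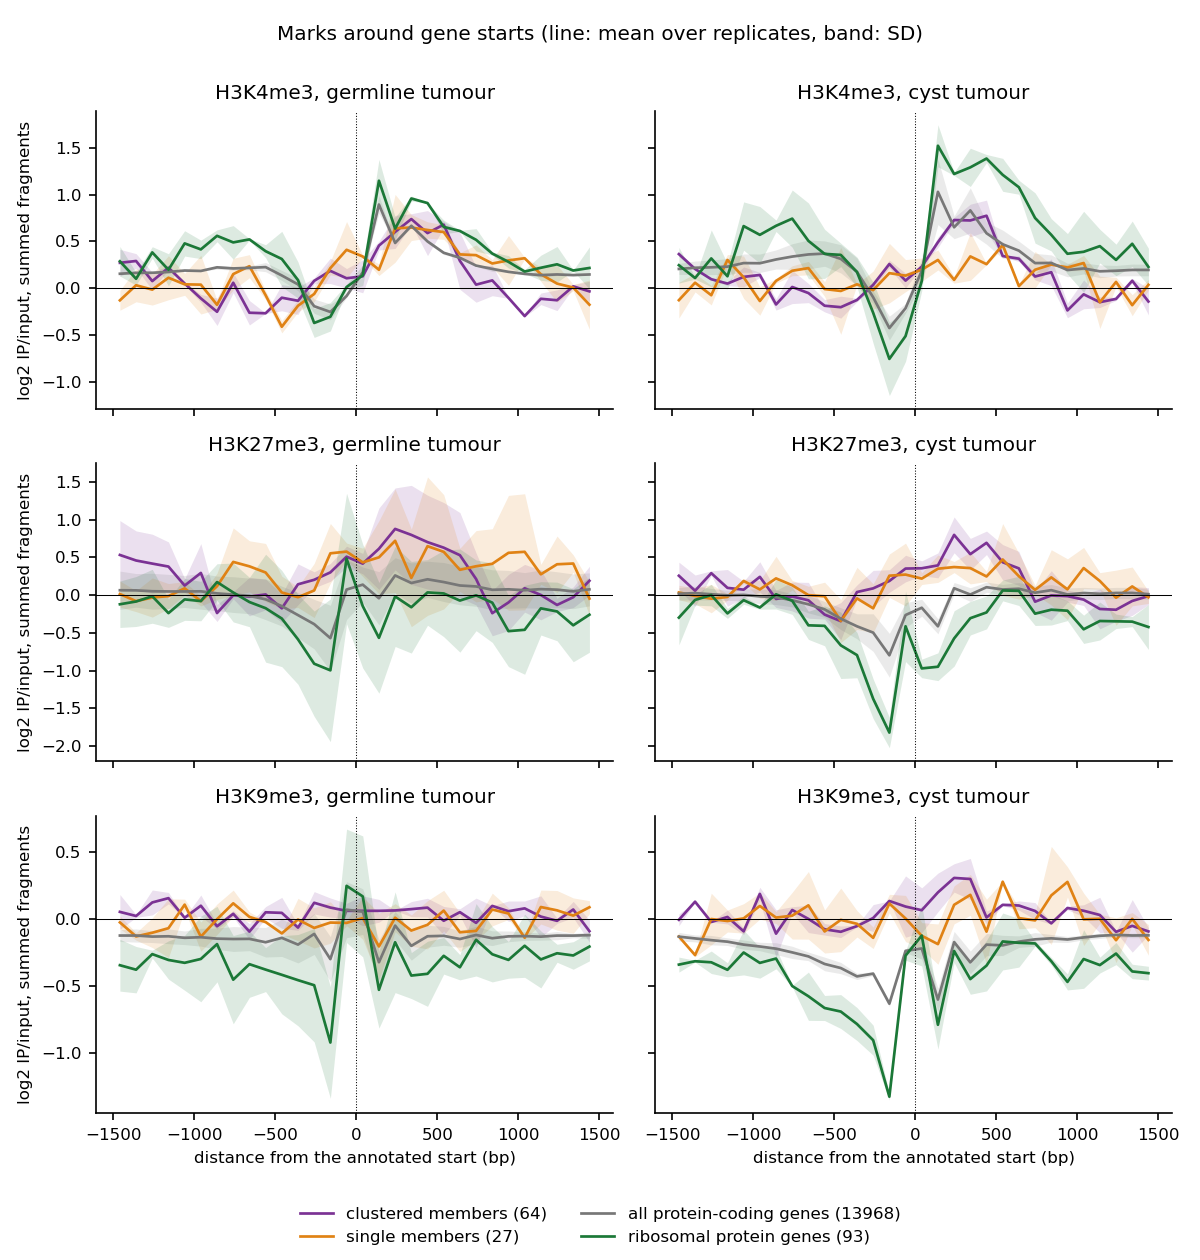
Log2 IP/input of summed fragments (vertical axis) by distance from the annotated start in bp, for clustered members, single members, all genes and ribosomal protein genes; lines are means over replicates and bands the SD. Clustered and single members show a broad low rise of H3K4me3 past the start and no dip before it, where all genes dip to -0.33 in germline and -0.55 in cyst relative to their flanks.

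Over gene bodies the median H3K4me3 of Tweedle genes stood above that of Cpr genes in both germline replicates and in cyst replicate 1, and below it in cyst replicate 2 (0.35 in Twdl and 0.40 in Cpr bodies); the family difference was not tested. In germline 30 of 93 member bodies were above input, where 20.3% of all bodies were, and in cyst 26 of 93, where 25.3% were. Of the 25 Twdl bodies, 16 were called in germline and 10 in cyst, and of the 68 Cpr bodies 14 and 16 in germline and cyst. The median over Twdl bodies was 0.84 ± 0.02 in germline and 0.50 ± 0.22 in cyst, and over Cpr bodies 0.36 ± 0.03 and 0.35 ± 0.07 (SD, n = 2). Twdl bodies are also the GC-richer, with 53.3% against 48.2%, and the part of GC content was not tested between the families. Their median input signal was lower too, at 0.65 in germline and 0.54 in cyst against 0.89 and 0.86 for Cpr bodies. The part of input was not tested. No body was below input among the members, against 1.34% of all bodies in germline and 0.681% in cyst. Without germline replicate 1 no body of any gene was called in germline, and without germline replicate 2, 16 members were (6.56% of all bodies); without cyst replicate 1 or 2, 12 or 14 members were called in cyst (13.8% or 24.4% of all bodies).

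Cpr47Eb, a small gene of the 47E cluster on 2R, had the highest body H3K4me3 by the mean of both tumours, though TwdlM was higher in germline and Cpr64Ad in cyst; its log2 IP/input was 2.33 and 0.93 in germline and 1.63 and 1.88 in cyst. TwdlM, the first gene of the largest cluster, had 1.99 and 1.39 in germline and 1.25 and 1.81 in cyst. Every replicate of both genes lay above its input, and both genes were called in both tumours. The germline minus cyst difference was called for 0 bodies of any gene in limma (percent called 0 in each direction), with 11 of 93 members higher and 5 lower in germline at an unadjusted p under 0.05, against 4.85% and 7.16% of all bodies.

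Across members, promoter H3K4me3 followed GC content: Spearman's rho over 94 promoters was 0.78 in germline and 0.46 in cyst, and over all 13686 promoters tested 0.62 and 0.44 in germline and cyst. With the input signal, rho was -0.49 in germline and -0.25 in cyst over members, and -0.42 and 0.00 over all promoters. The points share their libraries, so these are descriptions. When GC content and length were taken out by regression over all genes, the median of members minus that of all genes stood at -0.21 ± 0.03 for germline and -0.22 ± 0.10 for cyst tumours (SD, n = 2), compared with -0.06 ± 0.07 in both tumours before. Promoters with TATAAA had a median of 0.37 ± 0.10 in germline and 0.25 ± 0.06 in cyst among members, and those without it 0.13 ± 0.00 and 0.15 ± 0.03; among all genes the order was the other way, with 0.11 and 0.05 for promoters with TATAAA and 0.29 and 0.30 for those without, in germline and cyst.

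H3K27me3 asks whether these genes carry the Polycomb mark. It lay higher over cuticle protein bodies than over genes in general. The median log2 IP/input of member bodies was 0.66 ± 0.54 in germline and 0.41 ± 0.01 in cyst, against 0.18 ± 0.24 and 0.08 ± 0.05 for all genes in germline and cyst (SD, n = 3). The median for members minus that for all genes was 0.48 ± 0.37 in germline and 0.33 ± 0.05 in cyst. Above the median of all genes stood 81 of 92 member bodies (88.0%) in germline and 71 (77.2%) in cyst. With GC content and length taken out, 0.24 was left in germline and 0.17 in cyst. The bodies of 22 Polycomb targets lay under the members, at 0.28 ± 0.31 in germline and 0.16 ± 0.10 in cyst. At promoters these targets had 0.71 ± 0.21 and 0.27 ± 0.09, against 0.48 ± 0.33 and 0.24 ± 0.06 for members (SD, n = 3). Whether the member values reflect Polycomb repression was not tested.

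No member body was called above or below input by limma in germline (percent called 0 in each direction) or in cyst (0.0514% of all bodies higher, 0% lower). At an unadjusted p under 0.05 with a fold over 1.5, 37 of 92 members lay above input in germline and 20 in cyst, with 0 below in either. The same rule took 7.41% of all bodies above and 3.74% below in germline, and 7.2% above and 1.99% below in cyst. In edgeR on the recovered fragments 0 members were called in germline (0% of all bodies) and 4 in cyst (3.49%), namely Cpr30B, Cpr47Eb, TwdlM and Twdlalpha. The germline replicates were far apart: the median of members was 1.26, 0.52 and 0.21 in germline replicates 1, 2 and 3, and 0.41, 0.41 and 0.42 in the cyst replicates. That of all bodies was 0.44, -0.04 and 0.13 in the germline replicates and 0.03, 0.13 and 0.09 in the cyst replicates. Summed fragments gave lower values, at 0.48 ± 0.46 in germline and 0.26 ± 0.04 in cyst for members. For all bodies they gave 0.06 ± 0.15 and 0.01 ± 0.05 (SD, n = 3). The part of the 1 added fragment in the ratios of shallow libraries was not tested. Germline replicate 1 is the shallowest library, and without it 22 of 92 members were called above input in cyst, where 7.25% of all bodies were; both tumours share 1 estimate of the spread. Germline replicate 3, whose IP is the deepest of this mark (12640531 fragments), ran on its own flow cell. In it members lay little above all bodies, at 0.21 against 0.13. Without replicate 3 members exceeded all genes in germline by 0.68 ± 0.18 (SD, n = 2).

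Cpr47Eb had the highest H3K27me3 by the mean of both tumours among the 81 member bodies with at least 20 fragments on average; in germline alone TwdlJ and TwdlN were higher. Its log2 IP/input was 2.42, 1.15 and 0.49 in germline and 1.36, 1.42 and 1.34 in cyst, with 9 to 60 fragments per library. Its limma difference was 1.21 ± 0.38 (SE) in germline (adjusted p = 0.248) and 1.28 ± 0.38 in cyst (adjusted p = 0.165). All 6 ratios were above 0.

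Cpr64Ac had 1.81, 1.96 and 0.28 in germline and 2.04, 0.94 and 0.84 in cyst. Beside it, Cpr64Ad had 2.03, 1.07 and 0.39 in germline and 2.23, 0.96 and 0.69 in cyst. Twdlbeta had 2.14, 1.16 and 0.59 in germline and 1.62, 1.32 and 1.00 in cyst. Cpr64Ac, Cpr64Ad and Twdlbeta were among the members highest in H3K4me3 too, and germline replicate 3 gave the lowest germline ratio in all 4 of these genes. None was called in germline or cyst (adjusted p from limma between 0.161 and 0.276).

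At the low end, Cpr65Ay of the 65A cluster had -2.36, -0.36 and -0.03 in germline and 0.52, -1.20 and 0.40 in cyst. Its germline replicate 1 IP held 0 fragments over 35 in the input, and body GC was 37.8%. Cpr57A, a single gene on 2R, had 0.30, -0.27 and -0.18 in germline and -0.55, -0.41 and -0.19 in cyst. Cpr51A had 0.60, -0.36 and -0.22 in germline and -0.07, 0.16 and 0.20 in cyst, so its tumours overlapped around input. Cpr49Ad was the member of these 8 whose tumours did not overlap, with germline higher, as in 7.39% of all bodies. It had 0.14, 0.73 and 0.01 in germline and -0.53, -0.30 and -0.54 in cyst. The limma difference of germline minus cyst for Cpr49Ad was 0.68 ± 0.25 (adjusted p = 0.997).

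No member differed between germline and cyst in body H3K27me3 (percent called 0 in each direction in limma, 0 members in edgeR), with 4 members higher and 2 lower at an unadjusted p under 0.05, against 1.5% and 1.63% of all bodies. Members followed GC content here too, with a rho of 0.78 in germline and 0.63 in cyst over 92 bodies, and 0.71 and 0.60 over all 13622. With the input signal, the denominator of the ratio, rho was -0.65 in germline and -0.62 in cyst over members, and -0.52 and -0.55 over all bodies. The part of a low input in the member values was not tested. In the promoter window no member was called either, where 0.0512% of all promoters were above and 0.834% below input in cyst and 0% in germline. At an unadjusted p under 0.05 with a fold over 1.5, 19 of 94 members were above and 3 below in germline, against 5.2% and 11.9% of all promoters, and 15 above and 0 below in cyst, against 2.96% and 17%; edgeR was not run on this window. Without germline replicate 1, 4 members were called above input in cyst (0.988% of all promoters), and without germline replicate 3, 1 in germline (0.0441%); with the replicate number as a block Twdlbeta was called above input in germline (0.0878%).

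H3K9me3 showed its clearest pattern at promoters, through what members lacked. In cyst tumours 26.7% of all promoters were below input, and 0 of 95 member promoters were, in limma, with 0 also at an unadjusted p under 0.05 with a fold over 1.5 (26.7% of all promoters); without cyst replicate 2, 1 member was (12.2%). In germline 6.62% of all promoters and 0 members were. Above input were 1 member, Cpr64Ab, in cyst (0.321% of all promoters) and 0 in germline (0.153%). The median of member promoters was 0.04 ± 0.02 in germline and 0.08 ± 0.05 in cyst, against -0.13 ± 0.13 and -0.32 ± 0.05 for all promoters (SD, n = 2). Of the 95 member promoters, 77 (81.1%) in germline and 92 (96.8%) in cyst lay above the median of all genes.

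Ribosomal protein promoters stood at the other end, with medians of -0.40 ± 0.30 in germline and -0.62 ± 0.13 in cyst and with 20 and 47 of 93 below input in germline and cyst. Among all genes, promoters with TATAAA had -0.02 in germline and -0.08 in cyst, and those without it -0.15 and -0.35. Members with TATAAA had 0.04 in germline and 0.06 in cyst, and members without it 0.05 and 0.10. Cpr64Ab had log2 IP/input of 0.31 and -0.02 in germline and 0.72 and 0.63 in cyst, while its limma difference in cyst was 0.62 ± 0.14 (adjusted p = 0.00103). Its germline and cyst replicates did not overlap, with cyst higher, as in 10.3% of all promoters. The germline minus cyst difference of -0.49 ± 0.20 did not pass in limma (adjusted p = 0.18). That difference was called for 0 member promoters, against 2.17% of all promoters higher and 0.0073% lower in germline; at an unadjusted p under 0.05, 0 members were higher and 4 lower, against 17.3% and 1.07% of all promoters.

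Over gene bodies 3 of 93 members were above input for H3K9me3 in cyst, where 0.387% of all bodies were, and 0 in germline, where 0.0657% were. Below input were 0 members in either tumour, against 1.87% of all bodies in germline and 4.15% in cyst. At an unadjusted p under 0.05 with a fold over 1.5, 1 member was above and 0 below input in germline (0.102% and 2.09% of all bodies), and edgeR called TwdlK above it there (0.153%). The median of member bodies was 0.09 ± 0.10 for germline and 0.18 ± 0.04 for cyst tumours, against -0.11 ± 0.02 and -0.07 ± 0.03 for all bodies. Spearman's rho with GC content was 0.30 in germline and 0.52 in cyst over members, and -0.02 and 0.37 over all bodies. With the input signal it was -0.53 and -0.65 over members, and -0.24 and -0.57 over all bodies. The part of either was not tested. The 3 called bodies are all in clusters, at 47E, 64A and 65A. The calls did not outlast the loss of a cyst replicate: without cyst replicate 1, 0 members were called (0% of all bodies), and without cyst replicate 2, 1 member, Cpr47Eb (0.0219%). Without either germline replicate Cpr47Eb was not called and the other 2 were.

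Cpr64Ac had the highest body H3K9me3 by the mean of both tumours, below TwdlK in germline and Cpr47Eb in cyst, with 0.63 and 0.35 in germline and 0.91 and 0.81 in cyst. Its limma difference was 0.44 ± 0.11 in germline (adjusted p = 0.045, with a fold under 1.5) and 0.76 ± 0.11 in cyst (adjusted p = 0.00914). Both cyst replicates lay above both germline replicates, as in 27.0% of all bodies. The germline minus cyst difference of -0.32 ± 0.16 did not pass (adjusted p = 0.479).

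Cpr47Eb was at input in germline, with -0.12 and -0.11, and above it in cyst, with 1.25 and 0.52. The cyst IPs held 53 and 63 fragments over inputs of 58 and 61, in libraries of unequal depth, and the limma difference in cyst was 0.79 ± 0.18 (adjusted p = 0.0255). The germline minus cyst difference for Cpr47Eb was -0.90 ± 0.26 (adjusted p = 0.303 in limma), and edgeR called it and TwdlW lower in germline, as it did 2.21% of all bodies. Cpr65Az (chr3L:6160814-6161589, plus strand), at the far edge of the 65A cluster, had -0.19 and 0.35 in germline and 0.51 and 0.86 in cyst. It was called in cyst (adjusted p = 0.0215); with the replicate number as a block it was not. No body of any gene passed the germline minus cyst difference in limma (percent called 0 in each direction), and 2 of 93 members were higher and 6 lower in germline at an unadjusted p under 0.05, against 4.13% and 7.66% of all bodies.

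Of the Tweedle genes, TwdlK had 0.82 and 0.58 in germline and 0.12 and 1.10 in cyst, TwdlJ had 0.34 and 0.13 in germline and 1.07 and 0.23 in cyst, while TwdlY had 0.49 and 0.24 in germline and 0.55 and 0.79 in cyst. TwdlK and TwdlJ are neighbours in the largest cluster, and 28.6% and 13.0% of their body bins hold no fragment in any library. The lowest bodies were Cpr47Eg, with -0.35 and -0.34 in germline and -0.08 and -0.64 in cyst, Cpr60D, with -0.41 and -0.50 in germline and 0.10 and -0.40 in cyst, Cpr57A, with -0.23 and -0.14 in germline and -0.41 in each cyst replicate, and Cpr78Cb, with -0.27 and -0.30 in germline and -0.52 and -0.08 in cyst. None of these 4 was called below input. In germline Cpr60D had a limma difference of -0.43 ± 0.10 (adjusted p = 0.0356, with a fold under 1.5).

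**Figure D3:**
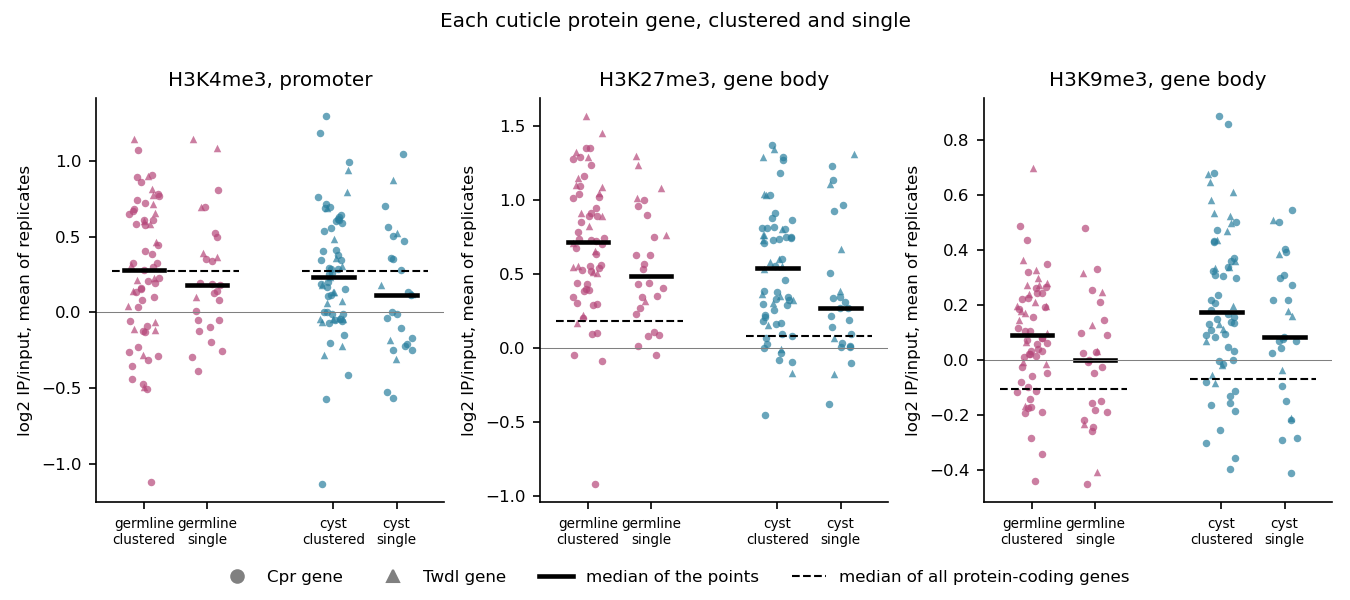
Log2 IP/input of each member (points, mean of replicates) for H3K4me3 at promoters and H3K27me3 and H3K9me3 over bodies, in clustered and single genes of germline and cyst tumours. For H3K27me3 and H3K9me3 the medians of clustered and of single members lie above the dashed median of all genes in both tumours, and for H3K4me3 they lie under it, except clustered members in germline (0.29 against 0.27).

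Clustered genes ran slightly above single genes for all 3 marks. The median of clustered minus that of single members was 0.10 ± 0.03 in germline and 0.12 ± 0.10 in cyst for promoter H3K4me3 (SD, n = 2), 0.29 ± 0.13 and 0.20 ± 0.12 for body H3K27me3 (SD, n = 3) and 0.15 ± 0.02 and 0.10 ± 0.07 for body H3K9me3 (SD, n = 2), in germline and cyst. Each replicate showed the same sign for all 3 marks. With GC content and length taken out, the differences were 0.07 and 0.06 for H3K4me3, 0.05 and 0.06 for H3K27me3 and 0.07 and 0.04 for H3K9me3. Body H3K4me3 was above input in 23 of 62 clustered members in germline (37.1%) and 24 in cyst (38.7%). Of 27 single members, 7 were above input in germline (25.9%) and 2 in cyst (7.41%). Among all bodies the shares were 20.3% in germline and 25.3% in cyst. Without germline replicate 1, no body of any gene was called in germline. The 4 genes in pairs stood lower in cyst, with a promoter H3K4me3 median at 0.04 ± 0.04 for germline and -0.56 ± 0.32 for cyst tumours (SD, n = 2).

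Read as whole domains, most clusters had more H3K27me3 and H3K9me3 than the 20 kb on each side of them. H3K27me3 was higher in the cluster than in its flanks in 11 of 14 clusters in each tumour, in every replicate for 6 clusters in germline and 11 in cyst, with a median difference of 0.18 in germline and 0.21 in cyst on the log2 scale. H3K9me3 was higher in 11 clusters in germline and 12 in cyst, with a median difference of 0.08 and 0.09. H3K4me3 was higher in 6 and lower in 8 clusters in germline, and higher in 9 and lower in 5 in cyst.

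The largest cluster, from TwdlM to TwdlD (chr3R:26619118-26641054, 12 Tweedle genes and no other protein-coding gene), had H3K27me3 of 0.50 ± 0.33 in germline and 0.04 ± 0.05 in cyst, 0.23 ± 0.23 above its flanks in germline and level with them in cyst (-0.02 ± 0.06; SD, n = 3). For H3K4me3 the same domain had 0.34 ± 0.01 in germline tumours and 0.02 ± 0.14 in cyst tumours (SD, n = 2). The 7 genes from Cpr47Ea to Cpr47Eg had H3K27me3 of 0.43 ± 0.30 in germline and 0.34 ± 0.04 in cyst, 0.35 ± 0.28 and 0.33 ± 0.12 above the flanks, and H3K9me3 0.22 ± 0.06 and 0.25 ± 0.02 above them, with the same sign in every replicate. The 7 Cpr genes at 65A (chr3L:6131242-6161589) are interleaved with 11 other genes, 10 of them larval and adult cuticle protein genes named Lcp65A or Acp65A. That domain had H3K4me3 below its flanks in every replicate, at -0.13 ± 0.09 in germline and -0.17 ± 0.05 in cyst, and H3K27me3 above them by 0.09 ± 0.20 and 0.08 ± 0.08 in germline and cyst. It holds Cpr65Ax1 and Cpr65Ax2, whose bodies are empty in all libraries.

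The cluster from Cpr64Aa to Cpr64Ad (chr3L:4207838-4216414) holds no other protein-coding gene. It had the highest cyst values of the 14 clusters for all 3 marks: 0.79 ± 0.02 for H3K4me3 (SD, n = 2), 0.62 ± 0.21 for H3K27me3 (SD, n = 3) and 0.38 ± 0.11 for H3K9me3 (SD, n = 2). In germline the same marks were 0.39 ± 0.06, 0.55 ± 0.65 and 0.17 ± 0.03. All 3 marks exceeded the flanks in cyst, by 0.41, 0.36 and 0.37. At the other end, the cluster from Cpr67Fa1 to Cpr67Fb (chr3L:10889990-10894693) lay under its flanks for all 3 marks in both tumours, at -0.52 and -0.37 for H3K4me3, -0.35 and -0.10 for H3K27me3 and -0.10 and -0.23 for H3K9me3, in germline and cyst. The 4 genes at 49A from Cpr49Aa to Cpr49Ad, on 2R, lay near their flanks for H3K27me3, at 0.10 ± 0.17 in germline and -0.09 ± 0.13 in cyst (SD, n = 3).

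**Figure D4:**
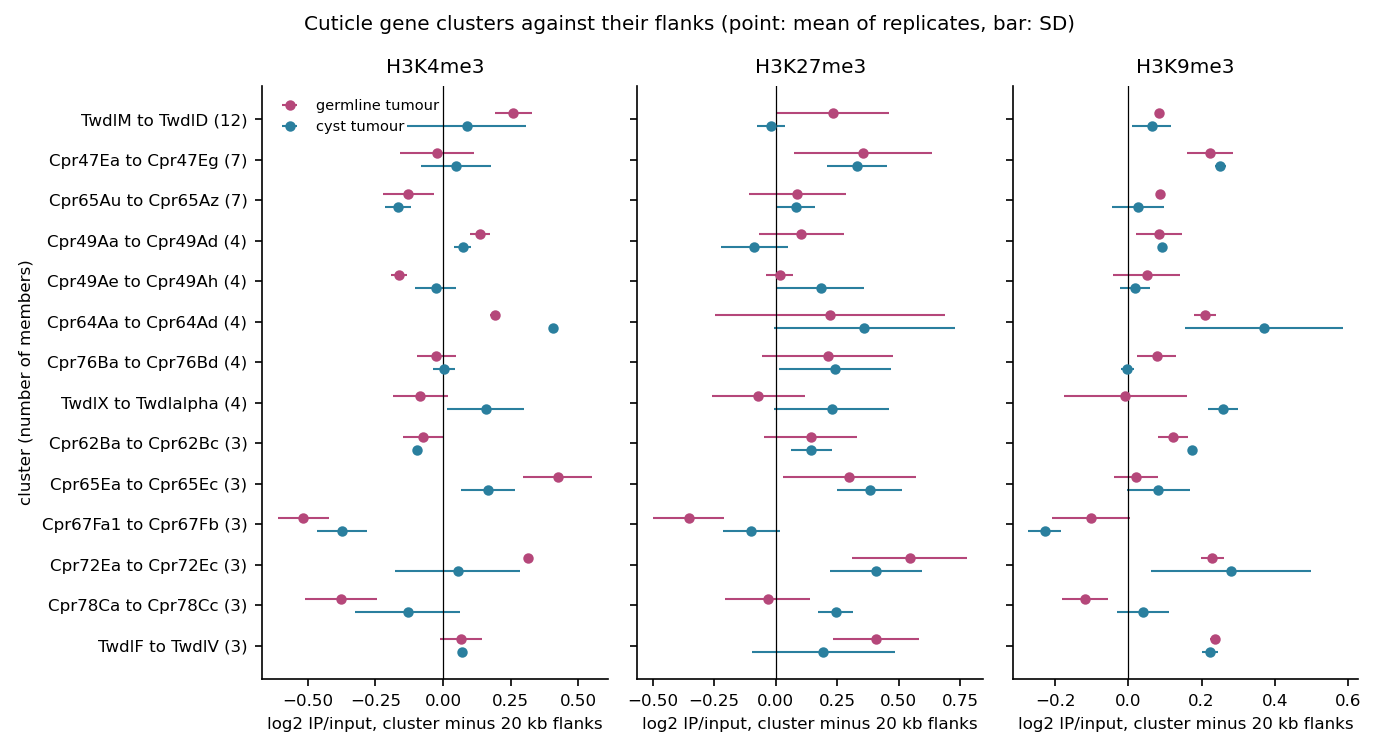
Log2 IP/input of each of the 14 clusters minus that of its 20 kb flanks (horizontal axis), by mark, with germline and cyst tumours as points (mean of replicates) and SD as bars. Most H3K27me3 and H3K9me3 points lie right of 0, the cluster from Cpr64Aa to Cpr64Ad among them, while the cluster from Cpr67Fa1 to Cpr67Fb lies left of 0 for all 3 marks.

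The input counts the fragments recovered from the chromatin that the nuclease released, and it does not measure release alone. All X-linked promoters, of which male cells carry a single copy, had 0.56 in germline and 0.71 in cyst. Autosomal promoters had 1.11 and 1.28. Bins that hold no fragment in any library lower the input too. Member promoters had a median input signal that was 0.90 ± 0.09 for germline and 0.87 ± 0.05 for cyst tumours (SD, n = 7), against 1.04 ± 0.06 and 1.19 ± 0.08 for all promoters in germline and cyst. Over bodies members had 0.82 ± 0.13 in germline and 0.77 ± 0.07 in cyst, against 0.98 ± 0.06 and 1.04 ± 0.03. Twdl genes were the lowest, with 0.65 ± 0.18 in germline and 0.54 ± 0.07 in cyst over bodies, compared with 0.89 ± 0.10 and 0.86 ± 0.05 for Cpr genes. Twdl genes include X-linked members such as TwdlY, and bodies with empty bins such as TwdlK (28.6%) and TwdlL (30.2%). The part of either in the low Twdl input was not tested. The 7 germline inputs of Twdl bodies ran from 0.48 to 0.95, and the 2 highest, 0.85 and 0.95, were those made for H3K9me3; the cyst inputs ran from 0.47 to 0.65.

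Germline minus cyst, the input of members was nearly level, where that of genes in general was lower. The median limma difference was 0.05 over member promoters and -0.21 over all promoters, and 0.07 over member bodies and -0.11 over all bodies. It was 0.01 over Cpr, 0.10 over Twdl and -0.14 over X-linked member promoters. Median input over member promoters ran from 0.78 to 1.03 in germline and from 0.81 to 0.93 in cyst, so the tumours overlapped. No member was called in either window, where 0.073% of promoters were higher and 4.9% lower in germline, and 0.0365% of bodies higher and 0.862% lower. In limma no member reached an unadjusted p under 0.05 with a fold over 1.5 in either window, where 0.073% of promoters did higher and 4.91% lower, and 0.0657% of bodies higher and 0.877% lower. Without the H3K27me3 inputs, 1 member promoter was called lower (14.4% of all promoters) and 2 bodies higher in germline (0.175% of all bodies). The 8 members on the X, of which male cells carry a single copy, had promoter input at 0.48 ± 0.04 for germline and 0.54 ± 0.07 for cyst tumours, against 0.56 ± 0.04 and 0.71 ± 0.07 for all X-linked promoters; autosomal members had 0.93 ± 0.08 and 0.91 ± 0.05.

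**Figure D5:**
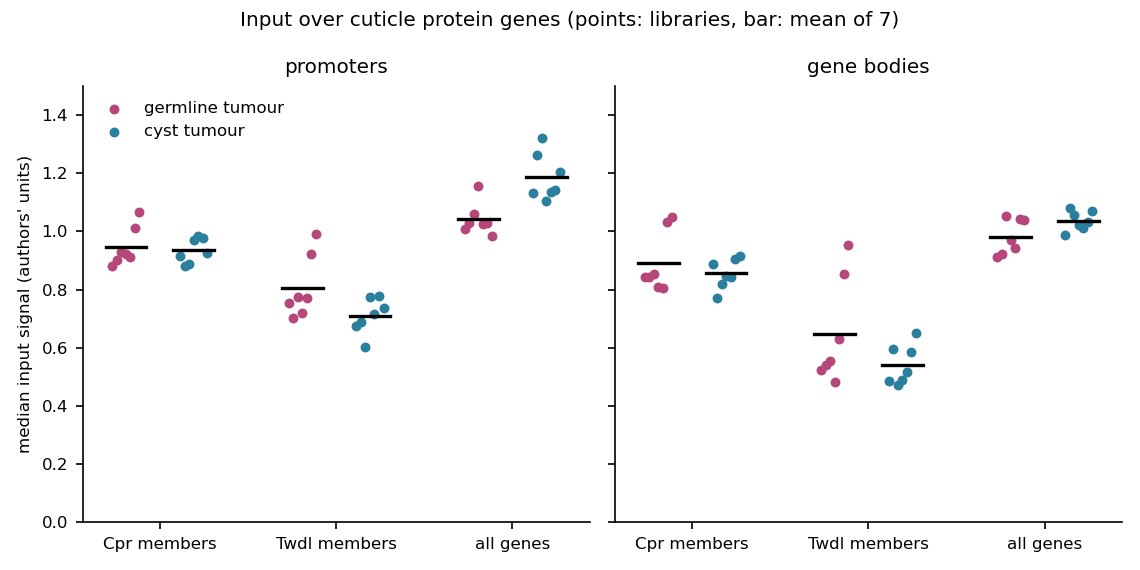
Median input signal in the authors' units (vertical axis, from 0) over Cpr genes, Twdl genes and all genes, at promoters and over bodies, with each of the 7 germline and 7 cyst inputs as a point and the mean as a bar. Twdl genes lie lowest in both windows, with 2 germline inputs near 0.9 over bodies.

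Other genes of the cuticle pathway were read from lists, whose promoter H3K4me3 counts stand against 20.7% of all promoters above and 4.52% below input in germline and 27.7% and 3.59% in cyst. Of 35 other cuticle proteins (Lcp, Ccp84, Acp and related genes), 33 had tested promoters, with H3K4me3 above input in 4 in germline and 1 in cyst and below it in 0 and 3; their median stood at 0.17 ± 0.21 for germline and -0.10 ± 0.05 for cyst tumours (SD, n = 2). Over bodies they had H3K27me3 at 0.64 ± 0.65 for germline and 0.29 ± 0.15 for cyst tumours (SD, n = 3), with 0 of 32 called (0% and 0.0514% of all bodies above input in germline and cyst), and H3K9me3 of 0.06 ± 0.08 and 0.23 ± 0.02 (SD, n = 2), with 1 of 33 above input in cyst (0.387% of all bodies). The 21 genes of chitin synthesis and matrix organisation had promoter H3K4me3 of 0.03 ± 0.10 in germline and 0.13 ± 0.13 in cyst, with 0 above and 3 below input in germline and 3 above and 2 below in cyst. The 15 regulators of cuticle genes and moulting, which include ecdysone-controlled nuclear receptors, had 0.39 ± 0.11 and 0.28 ± 0.01, with 1 above input in cyst. Among 7 markers of epidermis and trachea, 1 was above input in germline and 2 in cyst, with medians of 0.44 ± 0.16 and 0.35 ± 0.07. The part of such cells in the member values was not tested.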

How the data were processed

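The deposited signal, per the file headers and the values, counts fragments per 40 bp window at 20 bp steps, divided by 1 number per library by the authors; 100.0% of values were whole multiples of it (tolerance 0.01), which gave fragments back. The submitters' processing notes name Bowtie2 2.4.5 and the genome dm6, whose chromosome ends matched Release 6 for 7 of 7 chromosomes. Promoters are 500 bp on each side of the start. Log2(signal + 0.1) was fitted with limma 3.58.1 (R 4.3.3) over genes with a mean of at least 10 fragments, with Benjamini-Hochberg adjustment over all genes tested; edgeR 4.0.16 on recovered fragments was an alternative. The difference of IP effects between tumours was called at an adjusted p under 0.05 alone. Ratios per replicate use the input of the same number. The labels' protocols describe each input as part of the chromatin that went into the IP, which pairs them; deviations of paired IP and input from their group means correlated at -0.137 to 0.335. Named members were the 4 highest and 4 lowest per mark among those with at least 20 fragments on average, up to 6 called per comparison, the clusters with most members, and others chosen after their values were seen (Cpr64Ab, Cpr30B, TwdlM, body H3K4me3 and the clusters at 64A and 67F). The members and all lists were chosen with earlier results of these data known. The script was tested on simulated data. Alternatives were the pseudocount, the filter, the window, GC content and length, scaling, the cluster gap, the replicate block and leaving out libraries.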

Additional observations from a re-analysis of the deposited data

Results flagged for a closer look

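In 5 results every germline replicate moved one way from input and every cyst replicate the other. For the 4 genes in pairs (Cpr50Ca, Cpr50Cb, Cpr97Ea and Cpr97Eb) the median germline minus cyst was 0.597 for promoter H3K4me3, 0.51 for body H3K4me3 and 0.5241 for promoter H3K27me3, on the log2 scale; these differences of medians were not tested. For Cpr49Ad body H3K27me3 the germline minus cyst difference of mean log2 IP/input was 0.7495, and the limma difference of 0.68 ± 0.25 did not pass (adjusted p = 0.997). For Cpr47Eb body H3K9me3 it was -0.998, and the limma difference of -0.90 ± 0.26 did not pass (adjusted p = 0.303). Under a looser rule, that germline and cyst replicates do not overlap, 7.39% of all bodies had higher H3K27me3 in germline. By that rule 27.0% of all bodies had higher H3K9me3 in cyst. For H3K4me3, effects of flow cell and of tumour cannot be told apart. No sample stood far from its group in the 20 groups of input medians examined for that.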

How the results depend on the processing

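Of the 34 results, none reversed among called values; 54 of the alternative values moved and 252 did not. In the body window H3K4me3 of members minus all genes was 0.18 in germline and 0.0756 in cyst, and clustered minus single was 0.16 in germline. There 30 germline and 26 cyst members were above and 0 below input. Of all bodies 20.3% were above and 1.34% below in germline, and 25.3% and 0.681% in cyst. In the promoter window H3K27me3 of members minus all genes was 0.46 in cyst and clustered minus single 0.13 in germline. H3K9me3 of members minus all genes was 0.40 in cyst, with 1 member above input (0.321% of all promoters). With GC content and length taken out, members minus all genes was -0.21 and -0.22 for H3K4me3 in germline and cyst, 0.17 for H3K27me3 and 0.18 for H3K9me3 in cyst, and clustered minus single was 0.0703 for H3K4me3 and 0.0722 for H3K9me3 in germline and 0.0521 and 0.0638 for H3K27me3 in germline and cyst. Germline H3K4me3 of clustered minus single was 0.0663 with 5 fragments added, 0.14 with a gap of 50 kb and 0.0673 with pairs counted as clustered; cyst H3K9me3 of members minus all genes was 0.27 with 5 fragments added.

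With a pseudocount of 0.5, H3K4me3 calls were 4 above and 0 below input in germline and 5 above and 1 below in cyst, H3K27me3 had 1 above in cyst and H3K9me3 0. Without the filter 2 members were below input for H3K4me3 in germline. Centred on the median of all genes, H3K4me3 had 7 above and 4 below in germline and 5 above and 5 below in cyst, H3K27me3 3 above in cyst, H3K9me3 1 above in germline, and 3 member bodies had higher input in germline. In edgeR 4 members were below input for H3K4me3 in cyst, 4 above for H3K27me3 in cyst and 1 above for H3K9me3 in germline, and 2 had lower H3K9me3 in germline than in cyst. The share of all genes called moved between settings too, so these counts alone give no result particular to the members. The causes were not tested.

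Leaving out 1 replicate gave 2 to 18 members above and 0 to 1 below input for H3K4me3 in germline, 4 to 14 above and 1 to 2 below in cyst, 0 to 22 above for H3K27me3 in cyst, and 0 to 1 in germline and 0 to 3 in cyst above for H3K9me3. Without the inputs of H3K27me3, 1 member promoter was lower and 2 bodies higher in germline input. With the replicate number as a block, paired through the shared chromatin, 20 members were above and 1 below input for H3K4me3 in germline and 15 above and 2 below in cyst, and 2 above for H3K9me3 in cyst; the block moved no other count of the main windows. For these counts too, the share of all genes called moved with the libraries left out, so they alone give no result particular to the members. Leaving out replicates and the block in the secondary window were chosen after seeing the data. Member windows hold few fragments, down to 0 in the shallowest library, which limits H3K27me3 most.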

Other observations

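At promoters the 22 Polycomb target genes had log2 IP/input medians for H3K27me3 that were 0.71 ± 0.21 for germline and 0.27 ± 0.09 for cyst tumours (SD, n = 3), with 0 called, and for H3K9me3 0.31 ± 0.07 for germline and 0.30 ± 0.11 for cyst tumours (SD, n = 2), with 1 above input in cyst (0.321% of all promoters). The 8 heterochromatin-embedded genes had promoter H3K9me3 medians, -0.08 ± 0.23 for germline and -0.69 ± 0.03 for cyst tumours (SD, n = 2), with 6 below input in cyst (26.7% of all promoters) and 0 in germline (6.62%).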
